A study of Homo sapiens with 6 samples.

Results

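The genes described here are 18 aldehyde dehydrogenase (ALDH) enzymes and 17 genes used as markers of stem or stem-like cells, 35 of the 20030 gene symbols measured. The ALDH genes were taken by the pattern of their symbol, a family number, a subfamily letter and a gene number, which leaves out ALDH2, and the markers by name. RNA was sequenced from 6 samples of cells labelled SKOV3, a human ovarian carcinoma line, 3 of them kept for 24 h in vehicle (5% trehalose) and 3 exposed for 24 h to recombinant human CCL20 (rhCCL20) dissolved in the same vehicle, so that trehalose was common to both groups. The chemokine CCL20 signals through the receptor CCR6, and its dose is not given in the labels used here. Whether replicates were separate cultures is not said in the labels, and p-values therefore describe the spread of these samples, which may be technical. Each gene has an FPKM value in each library, that is, its fragment count divided by transcript length and by the total of mapped fragments of the library.

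Most ALDH enzymes oxidise aldehydes to carboxylic acids and use NAD or NADP as the electron acceptor. The ALDH1A enzymes make retinoic acid from retinal, and high ALDH activity, often attributed to ALDH1A1, is used to sort stem-like cells from ovarian and other carcinomas. Other family members act in amino acid, folate and lipid aldehyde metabolism. Of the marker genes, SOX2, NANOG, POU5F1, SALL4 and LIN28A belong to the pluripotency programme of embryonic stem cells, while CD44, CD24 and PROM1 (CD133) are surface proteins by which carcinoma cells are sorted.

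The libraries had summed FPKM between 301805 and 310080. The absolute depth is unknown, and the depth relative to vehicle replicate 1, from the spacing of low values, was 0.943 and 0.985 in the other vehicle libraries and between 1.01 and 1.09 with rhCCL20. The library of rhCCL20 replicate 3 stood apart, at 11.7 on the first principal component (38.8% of the variance), and the other 5 were at -3.96 to -0.737. Of the carcinoma markers, KRT8, KRT18 and KRT7 averaged 641, 588 and 112 FPKM over the 6 libraries. FOLR1, CD9 and MSLN averaged 53.6, 26.5 and 26.3 FPKM, while KRT19, EPCAM, MUC16, WT1, PAX8 and CDH1 averaged at most 0.175 FPKM. ERBB2, known to be amplified in SKOV3, averaged 7.83 FPKM, and CDKN2A, known to be deleted there, 16.4 FPKM, so these levels go against the name and the line is called by its label only. CCR6, the receptor, lay between 0.0123 and 0.129 FPKM.

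Promoter sequences of 4 ALDH genes are shown. They are those of the retinal oxidising pair ALDH1A1 (near 0) and ALDH1A3 (expressed), and of the most abundant enzyme ALDH9A1. The last is that of ALDH5A1, which had the smallest p of the 35 genes but did not pass after adjustment over all tested genes. Each runs 5′ to 3′ on the gene's strand from 250 bases before to 50 bases after the gene start, from RefSeq on GRCh38.p14, with CpG dinucleotides in capitals. The windows are chr9:72953004-72953303 (minus strand) for ALDH1A1, chr15:100879581-100879880 (plus) for ALDH1A3, chr1:165698513-165698812 (minus) for ALDH9A1 and chr6:24494719-24495018 (plus) for ALDH5A1.
ALDH1A1: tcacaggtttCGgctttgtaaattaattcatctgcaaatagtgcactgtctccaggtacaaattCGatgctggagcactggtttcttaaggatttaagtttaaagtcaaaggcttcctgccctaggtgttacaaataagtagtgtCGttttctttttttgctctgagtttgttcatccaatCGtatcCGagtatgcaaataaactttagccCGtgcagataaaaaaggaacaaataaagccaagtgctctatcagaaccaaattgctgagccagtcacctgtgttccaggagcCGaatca
ALDH1A3: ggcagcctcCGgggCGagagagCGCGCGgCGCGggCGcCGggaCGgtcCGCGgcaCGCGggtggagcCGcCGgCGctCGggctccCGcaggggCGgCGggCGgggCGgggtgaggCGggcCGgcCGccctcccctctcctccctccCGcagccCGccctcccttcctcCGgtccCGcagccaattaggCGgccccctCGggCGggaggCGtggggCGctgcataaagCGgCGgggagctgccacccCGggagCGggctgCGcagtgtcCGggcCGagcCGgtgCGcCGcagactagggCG
ALDH9A1: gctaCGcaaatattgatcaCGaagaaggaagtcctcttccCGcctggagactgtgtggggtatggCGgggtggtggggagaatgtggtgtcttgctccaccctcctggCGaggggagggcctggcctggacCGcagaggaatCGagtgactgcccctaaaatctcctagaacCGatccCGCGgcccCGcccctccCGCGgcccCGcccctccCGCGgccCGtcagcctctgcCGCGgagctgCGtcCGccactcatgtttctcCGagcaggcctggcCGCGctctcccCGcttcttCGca
ALDH5A1: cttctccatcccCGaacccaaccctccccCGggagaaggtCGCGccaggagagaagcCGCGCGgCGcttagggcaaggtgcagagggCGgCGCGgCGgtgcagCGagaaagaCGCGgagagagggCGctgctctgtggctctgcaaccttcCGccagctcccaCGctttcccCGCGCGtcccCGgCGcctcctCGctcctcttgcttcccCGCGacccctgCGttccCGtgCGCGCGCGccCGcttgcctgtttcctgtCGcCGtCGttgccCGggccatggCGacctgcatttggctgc

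The ALDH1A1 window held 7 CpG dinucleotides at a GC content of 40.3%, against 46 at 81.7% for ALDH1A3, 26 at 66.7% for ALDH9A1 and 38 at 71.0% for ALDH5A1. The median over 35114 promoters of the same length was 14 at 58.7%. A CpG-rich window did not go with expression throughout. ALDH1A2 (41 and 1 in its 2 windows) and LIN28B (37 and 8) were near or at 0. ENG, at 10.4 FPKM, had 8 and ALDH3B1, at 29.7 FPKM, had 4 and 12 in its 2 windows. ALDH8A1, with 2, and NANOG, with 5, were CpG-poor and near or at 0. CCAAT, searched on both strands, was found in the ALDH1A1 and ALDH1A3 windows, beginning 74 and 71 bases before the start, and occurs in 34.6% of all promoters. GGGCGG, the GC box, was found 6 times in the ALDH1A3 window, counting both strands, and not in that of ALDH1A1, where 45% of all promoters hold at least 1. TATAAA, held by 11.5% of all promoters on either strand, was in none of the 4 windows. Promoter entries were matched for 24 of the 35 genes.

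The 35 genes fell into an expressed and a near-silent set with a wide gap between them. In 21 genes every library was at 1.05 FPKM or above, and in the other 14 every library was at 0.302 FPKM or below. The expressed set held 13 of the 18 ALDH genes and 8 of the 17 stem-associated markers, the same 21 genes that met the filter for testing (at least 1 FPKM in at least 3 libraries). Over all symbols 51.2% met it. Of the 14 others, NANOG and ALDH1A2 were listed at 0 in all 6 libraries.

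**Figure D1:**
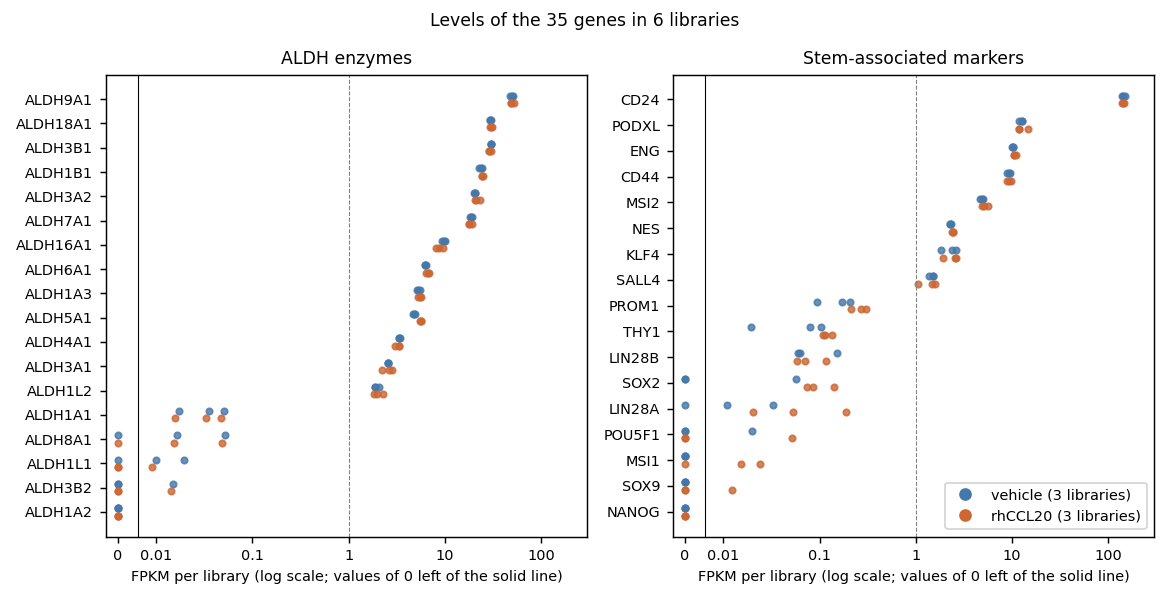
FPKM of each of the 18 ALDH genes (left) and 17 stem-associated markers (right) on a log axis, 1 point per library, with vehicle and rhCCL20 in separate colours and values of 0 drawn left of the solid line. The dashed line is at 1 FPKM, and no gene has values between 0.302 and 1.05 FPKM.

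The ALDH genes together summed to 206 ± 2.15 FPKM for vehicle and 208 ± 2.38 FPKM for rhCCL20 (SD, n = 3 each), and the make-up of that sum was alike in the 6 libraries. ALDH9A1, which oxidises trimethylaminobutyraldehyde in carnitine synthesis, gave 24.0% of it, with 23.4% to 24.9% by library. The 7 enzymes of amino acid and amine metabolism gave 54.6%, the 5 enzymes of fatty and small aldehydes 37.3%, and the 3 retinal oxidising enzymes 2.62%. These shares compare levels per length and depend on the transcript models used by the authors.

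**Figure D2:**
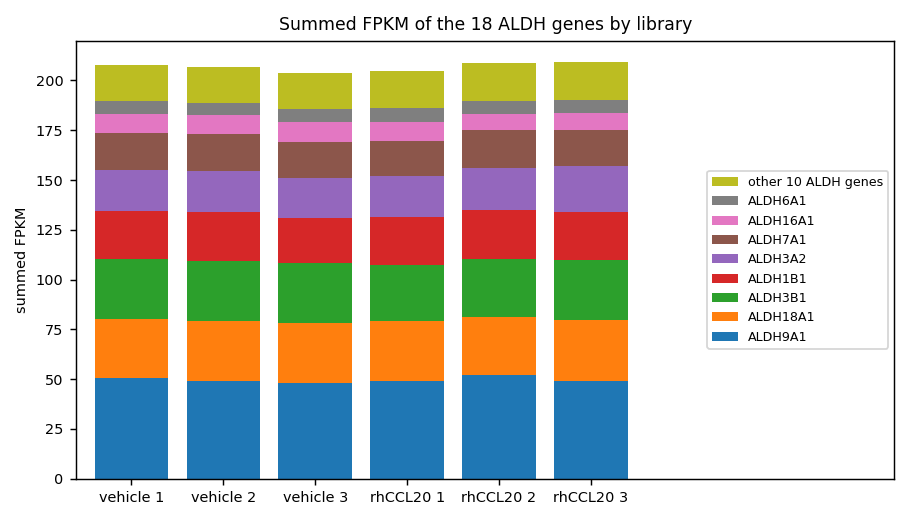
Summed FPKM of the 18 ALDH genes in each library, stacked by gene, with the 8 most abundant shown singly. The totals lie between 204 and 209 FPKM, and ALDH9A1 is the largest share in each library.

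Among the retinal oxidising enzymes, ALDH1A3 was the expressed member. In replicates 1 to 3 it had 5.44, 5.14 and 5.28 FPKM with vehicle, against 5.30, 5.54 and 5.68 FPKM with rhCCL20, an order of replicates used for every gene here. The groups overlapped, with a log2 fold change of FPKM + 1 of 0.05 (95% interval -0.07 to 0.17, limma adjusted p = 0.937). ALDH1A1, the enzyme most often linked to stem-like carcinoma cells, was at 0.0508, 0.0358 and 0.0174 FPKM in vehicle and at 0.0333, 0.0476 and 0.0156 FPKM with rhCCL20. After scaling for relative depth these values were 3, 2, 1, 2, 3 and 1 times a common step of 0.0169 FPKM (within 0.15 of a step), 6 steps in each group, so the level rests on very little signal and no difference was detectable at this depth. In RNA of whole cultures, few cells that carry a transcript and little of it per cell cannot be told apart. ALDH1A2 was listed at 0 in all 6 libraries. The ALDH1A3 level was between 107 and 364 times that of ALDH1A1 by library, a ratio as uncertain as its denominator.

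Enzymes of fatty and small aldehydes were abundant. ALDH3B1, which acts on aldehydes from lipid peroxidation, was at 30.1, 30.4 and 30.3 FPKM in vehicle and at 28.4, 28.9 and 30.1 FPKM with rhCCL20. All 3 vehicle values lay above all 3 treated values, by the narrowest margin at rhCCL20 replicate 3, for a log2 fold change of -0.05 (95% interval -0.14 to 0.03, limma adjusted p = 0.937). ALDH1B1, a mitochondrial enzyme of acetaldehyde oxidation, had 23.7, 24.3 and 22.6 FPKM against 24.2, 24.8 and 24.3 FPKM by the same order. ALDH3A2, the fatty aldehyde dehydrogenase of the endoplasmic reticulum, had 20.7, 20.7 and 20.1 FPKM against 20.3, 21.1 and 22.9 FPKM, highest in the library that stood apart. Its log2 fold change was 0.06 (95% interval -0.05 to 0.17) and 0.01 without that library. ALDH3A1, an abundant protein of the cornea, was lower, with 2.58, 2.57 and 2.55 FPKM against 2.85, 2.64 and 2.21 FPKM, and its treated libraries lay on both sides of the vehicle values. ALDH3B2 was at most 0.0151 FPKM.

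Among the enzymes of amino acid and amine metabolism, ALDH5A1 had the smallest p. ALDH5A1 is succinate semialdehyde dehydrogenase, the mitochondrial enzyme that completes the breakdown of the neurotransmitter GABA. It was at 4.71, 4.91 and 4.73 FPKM in vehicle and at 5.52, 5.69 and 5.69 FPKM with rhCCL20, and all 3 treated libraries lay above all 3 vehicle libraries. The means were 4.78 ± 0.113 and 5.63 ± 0.0994 FPKM (SD, n = 3 each), which is a difference of 17.7% of the vehicle mean. The log2 fold change was 0.20 (SE 0.0497, 95% interval 0.09 to 0.31), which ranked 18 by p of 10263 genes in limma and did not pass after adjustment over all of them (limma adjusted p = 0.937). Upon leaving out single libraries the log2 fold change lay between 0.188 and 0.214. ALDH5A1 lies on chromosome 6 from 24494852 to 24537207 on the plus strand (GENCODE 29, GRCh38), where it overlaps GPLD1 on the opposite strand, and without knowledge of the strand setting reads of both genes cannot be told apart. The same holds for ALDH6A1 with BBOF1, ALDH1L2 with C12orf45, ALDH16A1 with PIH1D1 and POU5F1 with TCF19, each on the opposite strand. On the same strand, ALDH4A1 overlaps AL080251.1, ALDH16A1 overlaps AC010619.1 and PROM1 overlaps FGFBP2, which a strand setting would not separate.

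The other enzymes of this class had overlapping groups. ALDH9A1 was at 50.8, 49.3 and 47.9 FPKM in vehicle and at 48.9, 52.0 and 49.0 FPKM with rhCCL20. ALDH18A1, which makes the glutamate semialdehyde from which proline is built, had 29.6, 29.7 and 30.1 FPKM against 30.1, 29.4 and 30.7 FPKM. ALDH7A1, an enzyme of lysine breakdown, had 18.8, 18.9 and 18.2 FPKM against 17.8, 18.9 and 17.9 FPKM. None of these 3 differed by more than its spread, with log2 fold changes of 0.02, 0.01 and -0.03. ALDH6A1, of valine and thymine breakdown, had 6.19, 6.21 and 6.40 FPKM against 6.80, 6.36 and 6.72 FPKM, a log2 fold change of 0.07 (95% interval -0.04 to 0.18). ALDH4A1, which finishes proline breakdown, had 3.32, 3.41 and 3.37 FPKM against 3.05, 3.32 and 3.33 FPKM. ALDH8A1, an enzyme of tryptophan breakdown, was at most 0.0518 FPKM and at 0 in vehicle replicate 3 and rhCCL20 replicate 3.

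Of the folate enzymes, which oxidise formyltetrahydrofolate, the mitochondrial ALDH1L2 was expressed and the cytosolic ALDH1L1 was not. ALDH1L2 was at 2.05, 1.89 and 1.87 FPKM in vehicle and at 1.99, 1.84 and 2.29 FPKM with rhCCL20. ALDH1L1 lay between 0 and 0.0193 FPKM. ALDH16A1 had the lowest log2 fold change of the 21 tested genes, at -0.14 (95% interval -0.27 to 0.00, limma adjusted p = 0.937). Its values were 9.69, 9.41 and 10.1 FPKM in vehicle and 9.61, 8.14 and 8.63 FPKM with rhCCL20, so rhCCL20 replicate 1 lay among the vehicle libraries.

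In the order of levels per length, ALDH9A1 was followed by ALDH18A1 and ALDH3B1, whose ranges over the 6 libraries (29.4 to 30.7 and 28.4 to 30.4 FPKM) overlapped. ALDH1B1 (22.6 to 24.8) and ALDH3A2 (20.1 to 22.9) overlapped at their edges, and ALDH7A1 (17.8 to 18.9) lay below both. ALDH1A3 (5.14 to 5.68) could not be ranked against ALDH5A1 (4.71 to 5.69). ALDH9A1 stood at percentile 89.3 of the tested genes by mean level, ALDH1A3 at 35.8 and ALDH1L2 at 11.5.

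Among the surface markers, CD24 was by far the most abundant and CD44 was moderate. CD24, a small glycosylphosphatidylinositol-anchored sialoglycoprotein, was at 148, 140 and 137 FPKM in vehicle and at 141, 146 and 138 FPKM with rhCCL20, percentile 96.7 of the tested genes. CD44, the hyaluronan receptor, had 9.34, 8.94 and 9.47 FPKM against 9.20, 8.77 and 9.74 FPKM. The groups overlapped for both genes, and each log2 fold change was 0.00, with 95% intervals of -0.09 to 0.09 for CD24 and -0.12 to 0.11 for CD44. The CD24 level was between 14.2 and 16.7 times that of CD44 by library. CD24 lies on chromosome 6 from 106969831 to 106975627 on the minus strand (GENCODE 29, GRCh38) and has near-identical copies elsewhere in the genome, so its level is uncertain if the authors' counting split shared reads.

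PODXL, a sialomucin of the CD34 family that carries stem cell epitopes, was at 11.8, 12.6 and 12.5 FPKM in vehicle and at 11.9, 11.8 and 14.5 FPKM with rhCCL20. Its log2 fold change was 0.04 (95% interval -0.12 to 0.20), and without rhCCL20 replicate 3 it was -0.05. ENG, the TGF-beta and BMP co-receptor endoglin, had 10.2, 9.87 and 10.2 FPKM against 10.5, 10.4 and 11.0 FPKM. All treated values lay above all vehicle values, for a log2 fold change of 0.07 (95% interval -0.03 to 0.17, limma adjusted p = 0.937). Of 8 endothelial markers, the cell type ENG is best known from, KDR and EMCN were at 0 in every library, while CDH5, a cadherin of endothelial junctions, lay between 0.782 and 1.11 FPKM and ESAM, an adhesion molecule, between 0.432 and 0.708 FPKM. The sum of the list, most of it from CDH5 and ESAM, was 1.59 to 1.77 FPKM in vehicle and 1.40 to 1.87 FPKM with rhCCL20. PROM1 (CD133) and THY1 (CD90) were below the filter, at 0.0945 to 0.302 FPKM and 0.0194 to 0.134 FPKM.

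Of the transcription factors, KLF4 and SALL4 were expressed at low levels, and the core pluripotency factors were at or near 0. KLF4, a zinc finger factor also made by many epithelia, was at 2.61, 1.82 and 2.35 FPKM in vehicle and at 2.54, 1.89 and 2.62 FPKM with rhCCL20. The libraries numbered 2 were the lowest of both groups, and the spread within groups, 17.3% of the mean, was the widest of the tested members. SALL4, a zinc finger factor of embryonic stem cells, had 1.51, 1.37 and 1.52 FPKM against 1.59, 1.05 and 1.48 FPKM. NANOG was listed at 0 throughout, as were NANOGNB and NANOGP8. POU5F1 (OCT4) was at 0.0197 FPKM in vehicle replicate 2, at 0.0520 FPKM in rhCCL20 replicate 3 and at 0 in the other 4 libraries. SOX9 was above 0 in 1 library, at 0.0123 FPKM in rhCCL20 replicate 2.

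Among the RNA-binding proteins and the filament gene, MSI2 and NES were expressed. MSI2, a Musashi translational regulator, was at 5.01, 4.81 and 4.62 FPKM in vehicle and at 5.09, 4.88 and 5.63 FPKM with rhCCL20, a log2 fold change of 0.09 (95% interval -0.05 to 0.23) with overlapping groups. Its paralogue MSI1, a marker of neural stem cells, was at 0 in 4 libraries and at 0.0239 and 0.0153 FPKM in rhCCL20 replicates 2 and 3. NES, the neural progenitor filament nestin, had 2.31, 2.24 and 2.25 FPKM against 2.45, 2.40 and 2.41 FPKM. Its groups did not overlap, at a log2 fold change of 0.06 (95% interval -0.06 to 0.19, limma adjusted p = 0.937). LIN28B, which blocks let-7 microRNA processing, lay between 0.0587 and 0.151 FPKM, and its paralogue LIN28A between 0 and 0.188 FPKM, with the highest value in rhCCL20 replicate 3.

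The comparison of rhCCL20 with vehicle asked whether the chemokine altered the transcripts of these cells, and no ALDH gene or stem-associated marker passed the test. Of the 21 tested members 0 rose and 0 fell at a limma adjusted p of 0.05, where 1 of all 10263 tested genes (0.00974%) was called, GAGE12G. At an unadjusted p under 0.05 there was 1 member, ALDH5A1, or 4.76% of the 21, where 4.73% of all tested genes fell under that value. The groups did not overlap for 4 members, with ALDH5A1, ENG and NES higher and ALDH3B1 lower with rhCCL20, where the share of all tested genes was 11.0% (6.88% higher and 4.13% lower). With 3 libraries a group, an exact test of a single gene cannot give a p below 0.1.

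The fitted differences were small and closely bounded. The median log2 fold change was 0.02 for the 13 tested ALDH genes and 0.04 for the 8 tested markers, beside 0.01 for all tested genes. Of the 21 members, 14 (66.7%) had a positive and 7 a negative log2 fold change, within a range of -0.14 to 0.20. For all 21 members, and for 97.6% of all tested genes, the 95% interval of the fold change held no change of FPKM + 1 beyond 1.3-fold up or down. The scale of log2(FPKM + 1) understates changes of the lowest of these genes. Spread within groups had a median of 3.44% of the mean for the members and 5.40% for all tested genes.

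**Figure D3:**
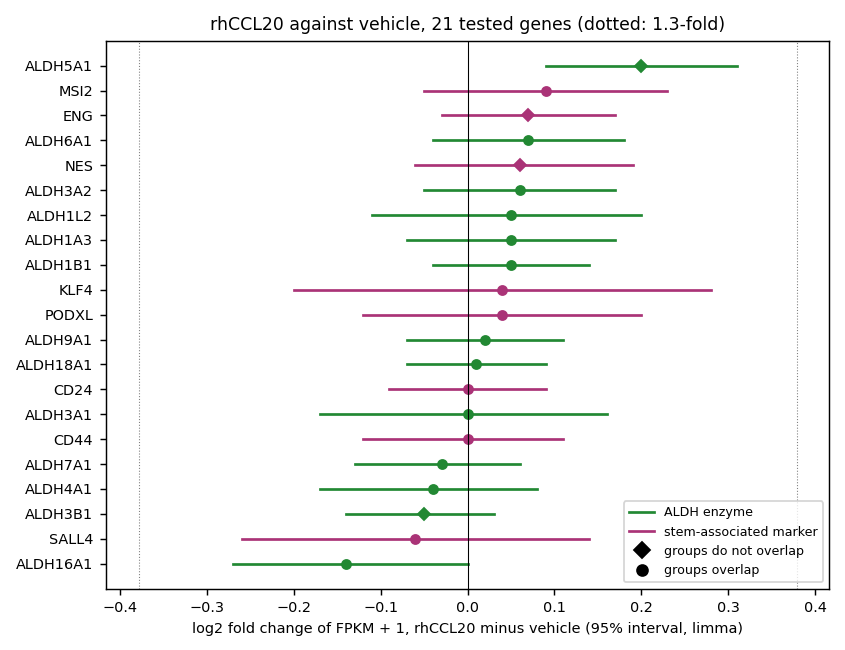
Log2 fold change of FPKM + 1 (rhCCL20 minus vehicle) with 95% limma intervals for the 21 tested genes, diamonds marking genes whose groups do not overlap and dotted lines a change of 1.3-fold. All intervals lie between the dotted lines, and ALDH5A1 is the gene whose interval lies above 0.

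The members were also read without the library that stood apart. Of the 21 tested members 10 had their highest value in rhCCL20 replicate 3, where 37.1% of all tested genes had theirs. Without that library the log2 fold change was 0.19 for ALDH5A1 (95% interval 0.08 to 0.31), 0.05 for ENG, 0.07 for NES and -0.07 for ALDH3B1, with adjusted limma p-values of at least 0.811. The log2 fold changes of MSI2, PODXL and ALDH3A2 were 0.04, -0.05 and 0.01 without it.

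**Figure D4:**
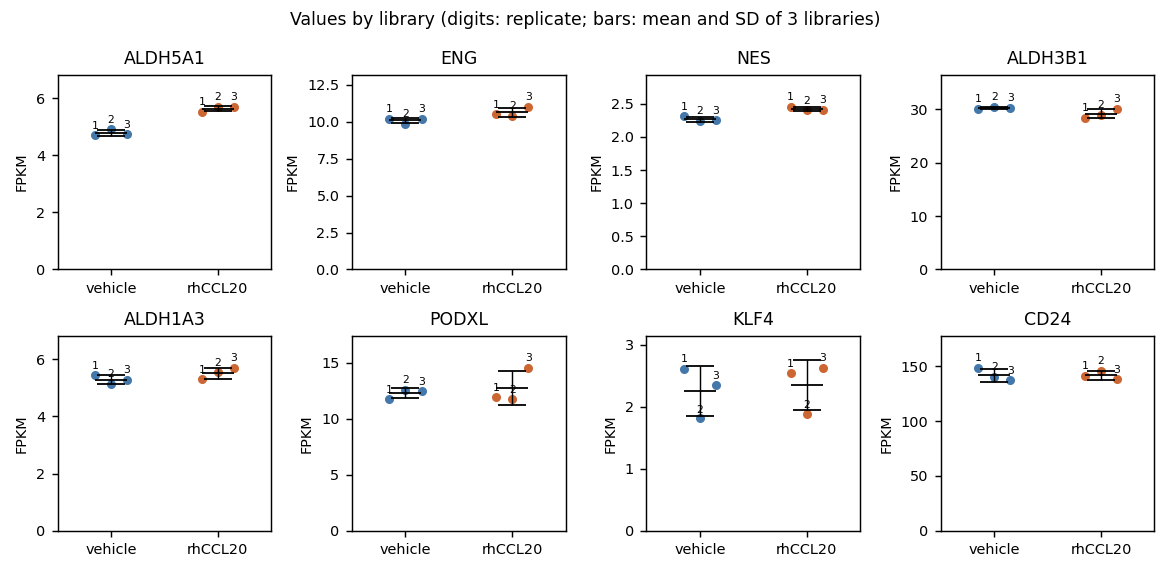
FPKM by library for 8 members, with axes from 0, points numbered by replicate, and bars for the mean and SD of 3 libraries. ALDH5A1, ENG and NES have treated values above all vehicle values, ALDH3B1 has them below, and ALDH1A3, PODXL, KLF4 and CD24 overlap.

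Below the filter, 12 members had values above 0, and their groups did not overlap for 3, SOX2, PROM1 and THY1, each higher with rhCCL20. SOX2, a core pluripotency factor whose gene lies within the noncoding SOX2-OT on the same strand, was at 0, 0 and 0.0568 FPKM in vehicle and at 0.0741, 0.140 and 0.0851 FPKM with rhCCL20. PROM1, whose gene overlaps FGFBP2 on the same strand, had 0.207, 0.170 and 0.0945 FPKM against 0.302, 0.266 and 0.210 FPKM. THY1, a surface glycoprotein of mesenchymal stem cells, had 0.104, 0.0802 and 0.0194 FPKM against 0.134, 0.109 and 0.114 FPKM. With no filter, 16355 genes were tested in limma, 0 passed after adjustment, and 5.26% had an unadjusted p under 0.05. SOX2 and PROM1 were among these and THY1 was not, and the limma adjusted p was 0.910 for each of the 3. Groups did not overlap for 9.92% of all genes in that fit, those above the filter included, and the share among genes below it was not computed. All 3 rhCCL20 libraries had the higher relative depth, and the part of depth in these trace values was not tested. LIN28A reached 19 steps of 0.0108 FPKM in rhCCL20 replicate 3 and at most 5 in any other library.

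Genes that work with the members did not pass either. Of 17 tested genes of retinoic acid handling and response, 0 rose and 0 fell, with a median log2 fold change of 0.00. TGM2, a transglutaminase induced by retinoic acid, averaged 51.8 FPKM over the 6 libraries, FABP5, a fatty acid and retinoic acid carrier, 44.5 FPKM, and RBP4, the plasma retinol carrier, had the smallest p of the list at a log2 fold change of -0.22 (95% interval -0.39 to -0.05, limma adjusted p = 0.937). Of 17 folate one-carbon enzymes 0 passed, with a median of 0.03 and thymidylate synthase TYMS and the mitochondrial MTHFD2 at 110 and 99.0 FPKM. Of 7 enzymes of proline and glutamate semialdehyde 0 passed, with a median of 0.02 and the ornithine aminotransferase OAT at 25.2 FPKM. Of 9 other enzymes of aldehyde and alcohol handling 0 passed, with a median of 0.00 and glyoxalase GLO1 at 147 FPKM.

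The lists around the stem markers gave the same count. Of 12 other stem-associated genes 0 passed, and their median log2 fold change was 0.04, which was 0.00 without rhCCL20 replicate 3. BMI1, a Polycomb subunit, had 30.1 ± 0.190 FPKM with vehicle and 32.7 ± 0.339 FPKM after rhCCL20 (SD, n = 3 each), for a log2 fold change of 0.12 (95% interval 0.04 to 0.19, limma adjusted p = 0.937) with groups that did not overlap. Of 11 tested partners of endoglin in TGF-beta and BMP signalling 0 passed, and 11 had a positive and 0 a negative log2 fold change, with a median of 0.08, where 57.8% of all tested genes were positive. Without rhCCL20 replicate 3 the median was 0.01, with 7 positive and 4 negative. Of 11 genes of the LIN28 and let-7 axis, 4 of the pluripotency network, 11 CD44 ligands, linkers and splicing regulators and 5 genes related to podocalyxin, 0 passed, with medians of 0.01, 0.02, 0.01 and 0.01. HMGA1, a chromatin protein, averaged 199 FPKM, the CD44 linkers MSN and EZR 110 and 76.1 FPKM, the T-box factor TBX3 46.4 FPKM, and the podocalyxin relative PODXL2 40.1 FPKM.

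Markers of the carcinoma and of other cells did not pass in the fit of all 6 libraries. In the carcinoma list, 6 of 12 genes were tested and 0 passed. All 6 had a negative log2 fold change, with a median of -0.08, and 42.2% of all tested genes were negative. For 4 of them, KRT7, KRT8, the mesothelial antigen MSLN and the tetraspanin CD9, all treated values lay below all vehicle values, where 4.13% of all tested genes did so. The summed level was 1449 to 1526 FPKM in vehicle and 1346 to 1451 FPKM with rhCCL20. The 12 leukocyte markers summed to 14.3 to 21.8 FPKM in vehicle and 18 to 20.1 FPKM with rhCCL20, of which CD68, a lysosomal protein of macrophages, gave 10.6 to 11.5 FPKM, while the leukocyte antigen PTPRC averaged 0.218 FPKM. LYZ, the lysozyme of myeloid cells, had 5.24, 0.692 and 0.469 FPKM in vehicle against 3.58, 2.92 and 4.27 FPKM after rhCCL20. Its log2 fold change of 0.87 (95% interval -0.11 to 1.85, limma adjusted p = 0.937) did not pass. Without vehicle replicate 1, which held the highest LYZ value, it was 1.53, higher with rhCCL20, and passed (limma adjusted p = 0.00317). With any other library left out it lay between 0.49 and 0.98, and it passed in none of the other alternatives. The 8 fibroblast markers summed to 9.83 to 10.3 and 9.51 to 9.92 FPKM, most of it from LUM, COL1A1 and PDGFRB at means of 4.44, 1.94 and 1.93 FPKM over the 6 libraries, while COL1A2 was at most 0.00844 FPKM. The part of these levels in the values of the members was not tested.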

How the data were processed

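The 35 genes and the further gene lists were chosen with earlier results of these data known. Total RNA was extracted with Trizol and made into libraries with an Illumina TruSeq RNA kit, per the labels' protocols. HTSeq, Cufflinks, HISAT2 and Trimmomatic, with the build GRCh38, are listed in the submitters' processing notes. Annotation, strand setting and versions: not given in the sources used here. The values the authors deposited are FPKM for each gene symbol (per the file headers), in 1 file per library. Depth is therefore unknown, and counting intervals were not computed.

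The test was limma 3.58.1 (R 4.3.3, eBayes with trend) with log2(FPKM + 1) as response and group as single term, for the 10263 of 20030 genes that reached 1 FPKM in 3 libraries or more, and Benjamini-Hochberg adjustment over all of them at 0.05. It was tested on simulated data first. Members above the filter are given by library and those below by range or singly. Of each further list, the text draws on the 2 most abundant tested genes and the gene with the smallest p, and 1 gene is not reported here. ERBB2, CDKN2A, CCR6, NANOGNB, NANOGP8, ALDH2, ESRP1 and ESRP2 and some markers were singled out after their values were seen. Relative depth is the sharpest mode of ratios of values under 0.3 FPKM. Alternatives were pseudocounts of 0.1 and 0.5, no filter or one of 5 FPKM, quantile or median-of-ratios scaling, other eBayes settings, a replicate block, and leaving out each library. Positions are from GENCODE 29.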

Additional observations from a re-analysis of the deposited data

How the results depend on the processing

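In all alternatives run, 0 members passed in limma, and the smallest adjusted p of a member was 0.716, without rhCCL20 replicate 2. Over all genes, 1 passed, but 0 with no filter (861 at an unadjusted p under 0.05), and 1 to 3 upon leaving out single libraries, with 3 without vehicle replicate 1. The median log2 fold change of the tested ALDH genes (0.0171) was -0.000343 with no filter, where 17 were tested, 0.0335 with the filter at 5 FPKM, where 10 were tested, and 0.0123 to 0.0383 upon leaving out single libraries, with 0.0383 without vehicle replicate 1 and 0.0319 without rhCCL20 replicate 1. That of the stem-associated markers (0.0409) lay between 0.00192 and 0.0785 when each library was left out, lowest without rhCCL20 replicate 3. Of 309 alternative log2 fold changes of single members, 291 kept direction and call and 18 changed sign, in 9 members whose intervals include 0. CD24 was at -0.00799 with quantile normalization and -0.00746 with median-of-ratios scaling. With each library left out, CD24 ranged from -0.0205 to 0.033, CD44 from -0.0376 to 0.0307, PODXL from -0.0496 to 0.0912, KLF4 from -0.0592 to 0.143, SALL4 from -0.127 to 0.0393, ALDH3A1 from -0.062 to 0.0696, ALDH1L2 from -0.0115 to 0.0945, ALDH9A1 from -0.0114 to 0.0383 and ALDH18A1 from -0.00279 to 0.0273. Beyond the number of genes tested, causes were not tested. With the replicate block, 1 gene and 0 members passed. The deviations of libraries 1, 2 and 3 of both groups had correlations of -0.10, 0.03 and 0.10, and not every library correlated best with its own number. Deviations from the mean of 3 libraries depend on each other, so these values cannot decide whether equal numbers are pairs. The numbers were not taken as pairs because the labels do not say that they share a culture or day. Unknown depth limits the reading of the 14 members below the filter.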

Other observations

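ALDH2, the mitochondrial enzyme that clears acetaldehyde and a relative of ALDH1B1, was close to 0, at 0.120, 0.0623 and 0.0604 FPKM in vehicle and at 0.159, 0.227 and 0.0913 FPKM with rhCCL20, while ALDH1B1 averaged 24.0 FPKM. The splicing regulators ESRP1 and ESRP2, which favour epithelial forms of CD44, differed from each other, with ESRP1 listed at 0 in all 6 libraries and ESRP2 between 4.45 and 5.33 FPKM. CD44 forms cannot be read from values per gene.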
